A study of Mus musculus with 9 samples.

Results

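The 38 genes described here encode complement and coagulation proteins that liver makes, together with their inhibitors. They were taken by name from the 54532 genes of the deposited table, and all 38 were found: 18 of complement and 20 of coagulation and fibrinolysis. The names were chosen by function, with earlier results of these data known. Liver RNA of mice had been sequenced in 9 libraries, 3 per group, to ask what the enzyme cystathionine gamma-lyase (gene Cth), which makes cysteine from cystathionine, does in chronic liver disease. The groups were wild type mice on plain drinking water, Cth knockout mice on plain drinking water, and Cth knockout mice given 1% betaine, a methyl donor, in the water (the betaine group). The labels give the genotype only as a knockout, and give no strain, age, sex, batch or way in which the gene was deleted. They do not say that replicates are separate animals, so p-values measure only the spread between these samples. By its sex-linked genes, given below, wild type replicate 3 did not come from the same mice as the other libraries. Apart from it, the spread may be technical.

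Complement is a cascade of plasma proteases that is started by antibody or by sugar patterns on a surface, converges on the cleavage of C3, and ends with a pore of terminal components in the target membrane. Coagulation is a second protease cascade that leads through factor X and prothrombin to thrombin, which turns fibrinogen into fibrin, and plasmin later dissolves that fibrin. Hepatocytes make most of these proteins, several of them as acute phase proteins whose levels move with inflammation, and several clotting factors need vitamin K for a modification made before secretion.

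Values are FPKM, the authors' read numbers scaled by gene length and by library, so levels can be compared between genes on that scale. Differences are log2(FPKM + 0.5), the added 0.5 being a pseudocount, from a limma model over all 9 libraries, given ± SE with n = 3 libraries per group. They understate the change of genes near 0. A gene was tested where its mean was at least 0.5 FPKM, which held for 11852 genes and all 38 members, and called where its Benjamini-Hochberg adjusted p over those genes was under 0.05.

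Cth itself, the check of the knockout, measured 285, 257 and 219 FPKM in wild type replicates 1 to 3 and between 0.278 and 0.781 FPKM in the 6 knockout libraries. Reads recovered from the FPKM came to 15184982 to 17474268 per library, and 3 reads in a gene of 1 kb equal 0.162 to 0.222 FPKM, for counting error only. Every member except Cfb lay well above that. Cfb had the fewest reads behind a value, 11 in knockout replicate 2 (0.274 FPKM), and the member next to it was C6, with 450 at its lowest. Wild type replicate 3 stood apart. It had 26.6 FPKM of Xist, the RNA of the inactive X chromosome, and 0 for the Y-linked genes Ddx3y, Uty, Kdm5d and Eif2s3y, whereas each of the other 8 libraries had at most 0.0124 FPKM of Xist and reads of all 4 Y-linked genes. The values are those of female liver in wild type replicate 3 and of male liver in the other 8. Wild type was thus of mixed sex, and the model had no term for sex. Wild type replicate 3 was the lowest of all 9 for 11 of the 38 members, beside 23.3% of all tested genes, and betaine replicate 2 for 12 of the 38, beside 10.6%. All 10 hepatocyte markers were present, and their sums ran from 47935 to 66885 FPKM for wild type, from 40358 to 51985 FPKM for the knockout and from 32851 to 45796 FPKM with betaine. Most of each sum was Alb, the albumin gene, at 31206 to 51130 FPKM for wild type and 22638 to 30005 FPKM for the knockout. Of the 10 markers 1 was called higher and 3 lower in the knockout, and Apoa1, an apolipoprotein gene, ran opposite to Alb, at 5106 to 5814 FPKM for wild type and 7616 to 10849 FPKM for the knockout.

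In the knockout, 8 members were lower and 3 higher than in wild type, and 27 were not called. The share called among all tested genes was 12.7% lower and 12.8% higher, so 8 of 38 lower is above that background and 3 of 38 higher below it, with no test of either. The members that fell were C3, Cfb, Cfi and Hc of complement and F5, F13b, Pros1 and Plg of coagulation and fibrinolysis. Those that rose were Mbl1, C8g and F10. The median difference over the 38 was 0.03, beside 0.02 over all tested genes, and 18 of 38 had an unadjusted p under 0.05, beside 4742 of 11852 genes. C3, F5, F13b and Pros1 kept their fall in each of 19 alternative analyses, and the other 7 calls did not.

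Rescaling each library to the same total, as TPM, moved the median of all tested genes in the knockout to -0.36 and that of the members to -0.39. With that rescaling 18 members were lower and 2 higher, beside 31.0% lower and 4.96% higher of all tested genes. Of all called genes 13.8% were higher in place of 50.1%. All 8 falls and the rises of Mbl1 (0.41, adjusted p = 0.0430) and C8g (0.56, adjusted p = 0.0198) passed in it, whereas the difference of F10 was 0.17 (adjusted p = 0.295). The 38 members summed to 3.23% to 3.81% of all FPKM in wild type, to 2.37% to 2.61% in the knockout and to 2.66% to 2.86% in the betaine group. In summed FPKM as deposited the wild type and knockout libraries overlapped, at 14258 to 14494 and 12674 to 14791.

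**Figure D1:**
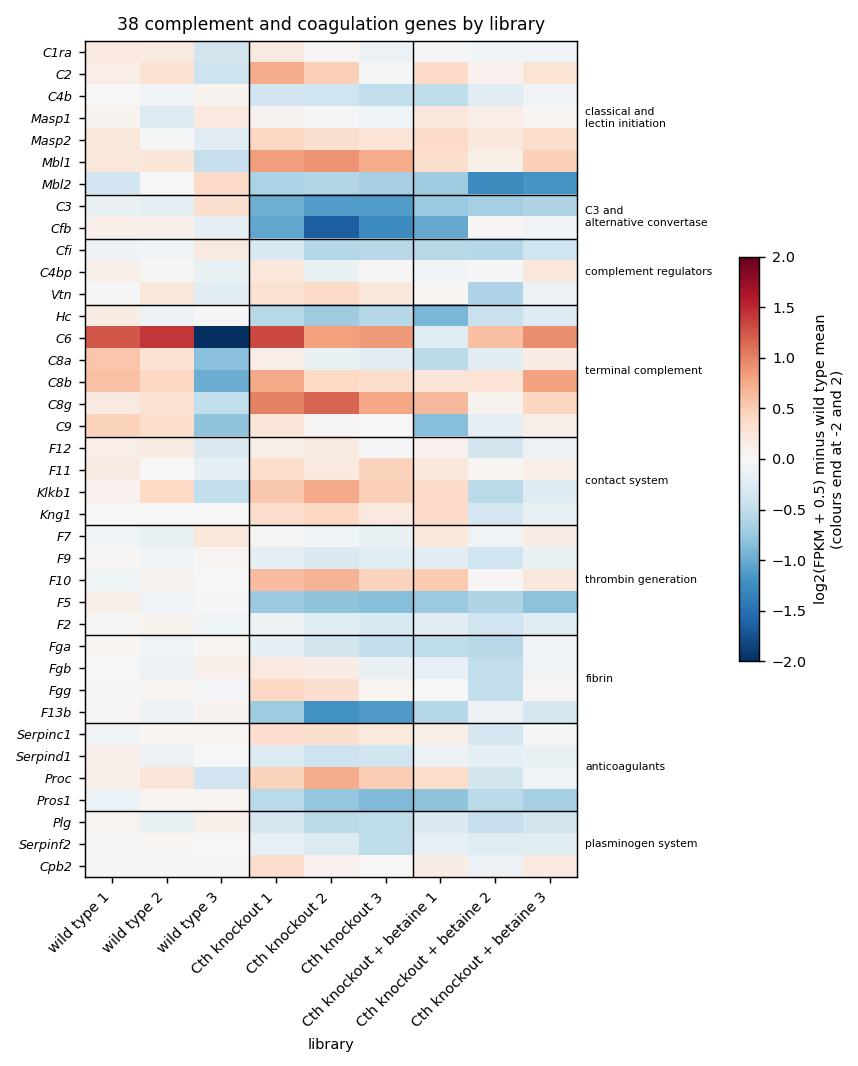
Each cell is the log2(FPKM + 0.5) of 1 gene in 1 library minus its wild type mean, for the 38 members grouped by role; colours end at -2 and 2. C3, F5, F13b and Pros1 are below the wild type mean in all 6 knockout libraries, with and without betaine, and C6, C8a, C8b and C9 are low in wild type replicate 3.

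The promoters of the 4 genes whose fall kept its call in every analysis and of the 3 that rose show what sequence they do and do not share. Each is the 250 bases before the gene's RefSeq start in GRCm38.p6, written along the gene's own strand. Capitals mark matches, on either strand, to short motifs of liver transcription factors: GTTAAT (HNF1), TTNNGNAA (C/EBP), AAAGTCCA (HNF4), TGTTTNC (FOXA) and TTCNNNGAA (STAT), and to the TATA box TATAAA.
C3, chr17:57228137-57228386, minus strand: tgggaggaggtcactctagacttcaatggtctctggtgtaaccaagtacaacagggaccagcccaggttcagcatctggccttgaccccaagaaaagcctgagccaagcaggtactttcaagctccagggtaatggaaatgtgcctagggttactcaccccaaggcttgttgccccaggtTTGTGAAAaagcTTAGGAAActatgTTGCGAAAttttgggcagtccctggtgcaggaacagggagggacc
F5, chr1:164151585-164151834, plus strand: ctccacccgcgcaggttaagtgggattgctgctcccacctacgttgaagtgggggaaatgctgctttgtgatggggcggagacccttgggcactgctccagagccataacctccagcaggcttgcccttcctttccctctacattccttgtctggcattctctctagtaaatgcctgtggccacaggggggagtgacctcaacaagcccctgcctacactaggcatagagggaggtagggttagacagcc
F13b, chr1:139501457-139501706, plus strand: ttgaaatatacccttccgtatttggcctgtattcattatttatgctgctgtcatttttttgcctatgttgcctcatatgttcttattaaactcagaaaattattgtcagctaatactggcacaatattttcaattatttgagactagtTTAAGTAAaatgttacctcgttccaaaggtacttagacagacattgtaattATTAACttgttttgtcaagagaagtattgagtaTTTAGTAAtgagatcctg
Pros1, chr16:62854057-62854306, plus strand: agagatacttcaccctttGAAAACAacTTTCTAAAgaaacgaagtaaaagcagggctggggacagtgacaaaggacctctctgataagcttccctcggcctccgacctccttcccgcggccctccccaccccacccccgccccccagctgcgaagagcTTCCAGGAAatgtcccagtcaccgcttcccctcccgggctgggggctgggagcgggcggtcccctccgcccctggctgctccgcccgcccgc
Mbl1, chr14:41151206-41151455, plus strand: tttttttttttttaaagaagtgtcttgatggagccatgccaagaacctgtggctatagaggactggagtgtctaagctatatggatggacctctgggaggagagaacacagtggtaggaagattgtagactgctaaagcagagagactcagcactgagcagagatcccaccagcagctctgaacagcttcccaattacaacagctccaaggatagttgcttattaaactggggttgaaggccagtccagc
C8g, chr2:25501720-25501969, minus strand: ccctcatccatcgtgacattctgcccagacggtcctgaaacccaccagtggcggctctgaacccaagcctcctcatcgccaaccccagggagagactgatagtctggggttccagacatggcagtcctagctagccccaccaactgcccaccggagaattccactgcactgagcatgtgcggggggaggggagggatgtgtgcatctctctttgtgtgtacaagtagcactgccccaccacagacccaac
F10, chr8:13037058-13037307, plus strand: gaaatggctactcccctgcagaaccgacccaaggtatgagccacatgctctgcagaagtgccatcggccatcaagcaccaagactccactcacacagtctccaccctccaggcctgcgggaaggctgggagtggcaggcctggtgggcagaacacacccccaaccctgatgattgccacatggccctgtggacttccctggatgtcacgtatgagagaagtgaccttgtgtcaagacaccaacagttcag

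The C3 promoter held 3 C/EBP matches, F13b held 1 HNF1 and 2 C/EBP matches, and Pros1 held 1 match each for C/EBP, FOXA and STAT. None of the motifs matched in the windows of F5, Mbl1, C8g or F10. A RefSeq promoter was at hand for 30 of the 38 members. Of those 30, 30.0% had an HNF1 match, beside 6.43% of 32851 promoters of the same length, 33.3% a FOXA match beside 17.8%, and 20% a STAT match beside 7.02%. C/EBP matches stood in 46.7% beside 36.8%, TATA boxes in 10% beside 12.4%, and the HNF4 motif in 0% beside 1.01%. A match is a description of letters and not a measured site, and the members, all liver genes, were chosen for their function.

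The first steps of complement are taken by recognition proteins and the proteases they carry. Mbl1 and Mbl2 encode the mannose-binding lectins, which recognise sugars on microbes, and they moved apart. Mbl1 (chr14:41151458-41159601) measured 139, 140.4 and 85.6 FPKM in wild type replicates 1 to 3, 211, 222 and 198 FPKM in the knockout and 152, 128 and 164 FPKM in the betaine group. All 3 knockout libraries lay above all 3 of wild type and of the betaine group, and the betaine and wild type groups overlapped. The rise in the knockout was 0.82 ± 0.20 (limma, adjusted p = 0.0182), and 0.59 (adjusted p = 0.0228) without wild type replicate 3, its lowest library. The call ended without knockout replicate 1 (adjusted p = 0.0512) or 2 (adjusted p = 0.0707).

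Mbl2 (chr19:30232942-30239687) measured 289, 379.9 and 492 FPKM in wild type, 243, 252 and 238 FPKM in the knockout and 230.0, 156 and 167 FPKM in the betaine group. Its groups did not overlap in any of the comparisons, with wild type highest and the betaine group lowest. The difference in the knockout, -0.63 ± 0.21, was not called (adjusted p = 0.0564), and it passed without wild type replicate 1 (-0.82, adjusted p = 0.0363) or betaine replicate 1 (adjusted p = 0.0398). Wild type replicate 3 was its highest library, at 1.47 times the mean of wild type replicates 1 and 2. Without that library the difference was not called. Expressed as Mbl1 over Mbl2, a ratio chosen after its values were seen and not tested, wild type libraries gave 0.480, 0.369 and 0.174, knockout libraries 0.871, 0.880 and 0.833, and betaine libraries 0.660, 0.821 and 0.985. The highest wild type ratio was below the lowest of either knockout group.

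The proteases and C4 differed less. Masp1 and Masp2, the proteases bound to these lectins, had differences of -0.02 (adjusted p = 0.943) and 0.33 (adjusted p = 0.0988) in the knockout. C1ra, a protease of the antibody-triggered route, was at 0.03 (adjusted p = 0.898) and C2, which joins C4b in the convertase that cleaves C3, at 0.39 (adjusted p = 0.230). C4b measured 259, 251 and 274 FPKM in wild type and 201, 197 and 186 FPKM in the knockout, which did not overlap, with a difference of -0.42 ± 0.14 (adjusted p = 0.0541). It passed without betaine replicate 1 (adjusted p = 0.0285). C1ra, C4b and Kng1 have near-identical copies, C1rb, C4a and Kng2, and how shared reads were counted is not given in the sources used here, so their values are uncertain. Masp2 shares 54.9% of its exon bases with Tardbp on the other strand, which measured 8.15 to 14.5 FPKM.

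C3 is the protein on which all routes converge, and it fell in the knockout and lay between in the betaine group. It measured 1569, 1522 and 2139 FPKM in wild type replicates 1 to 3, 873, 795 and 792 FPKM in the knockout and 1031, 1085 and 1134 FPKM in the betaine group. The 3 groups did not overlap: wild type was highest and the knockout without betaine lowest. C3 (chr17:57203970-57228136) was 2.13-fold higher in wild type than in the knockout, a difference of -1.07 ± 0.16 (limma, adjusted p = 0.00607), and stood at -0.92 (adjusted p = 0.00909) without wild type replicate 3. The betaine group remained below wild type (-0.67 ± 0.16, adjusted p = 0.0322), a call that ended in 6 of the 9 analyses that left out a library, with adjusted p of 0.0535 to 0.0857.

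Cfb encodes factor B, the protease of the alternative convertase that amplifies C3 cleavage. It was the member with the lowest level, at 2.09, 2.08 and 1.6 FPKM in wild type, 0.681, 0.274 and 0.499 FPKM in the knockout and 0.693, 1.95 and 1.81 FPKM in the betaine group. All knockout libraries lay below all of wild type, and betaine replicate 1 lay next to the knockout libraries while the other two lay among those of wild type. The fall in the knockout was -1.32 ± 0.28 (adjusted p = 0.0125), or -1.15 (adjusted p = 0.0543) without knockout replicate 2. Cfb (chr17:34856374-34862518) lies 86 bases from C2, and 79.5% of its exon bases and 42.8% of those of C2 also belong to the gene Gm20547, which runs along both on the same strand and is listed at 0 in all 9 libraries. Whether reads in the shared bases were dropped is not given in the sources used here, and the effect on both levels was not tested.

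Of the regulators, Cfi, which encodes factor I, the protease that inactivates C3b and C4b, fell in the knockout. Its libraries were at 302, 310.1 and 369 FPKM in wild type, 264, 219 and 222 FPKM in the knockout and 221, 219.7 and 248 FPKM in the betaine group. Both knockout groups lay below wild type and overlapped each other, with differences from wild type of -0.48 ± 0.14 (adjusted p = 0.0362) and, with betaine, -0.51 ± 0.14 (adjusted p = 0.0482). The first call ended without wild type replicate 1, 2 or 3, knockout replicate 2 or 3, or betaine replicate 3 (adjusted p = 0.0517 to 0.131), and the second without any 1 of the 9 libraries (adjusted p = 0.0635 to 0.108). C4bp, a cofactor of factor I, measured 68.4 to 88.3 FPKM over all 9 libraries and differed by 0.03 (adjusted p = 0.888). Vtn, which encodes vitronectin, an inhibitor of the membrane pore and an adhesion protein, ranged from 1239 to 1672 FPKM for wild type, from 1665 to 1862 FPKM for the knockout and from 927 to 1466 FPKM with betaine, with no call.

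The terminal components build the membrane attack complex: C5, encoded by Hc, then C6, C7, C8 and C9. Hc was lower in the knockout, at 175, 148 and 154 FPKM in wild type, 107, 97.1 and 106 FPKM in the knockout and 83.8, 117 and 133 FPKM in the betaine group. All 6 libraries of the knockout groups lay below all wild type libraries. The fall without betaine was -0.61 ± 0.17 (adjusted p = 0.0315), and the difference with betaine, -0.54 ± 0.17, was not called (adjusted p = 0.0749). The call for Hc (chr2:34983331-35061438) ended without wild type replicate 1 or knockout replicate 1, 2 or 3 (adjusted p = 0.0684 to 0.110).

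C8 is a complex of alpha, beta and gamma chains, from C8a, C8b and C8g, and the gamma chain rose while the others were not called. C8g (chr2:25498651-25501719) measured 243, 264 and 152 FPKM in wild type, 431, 479 and 364 FPKM in the knockout and 336, 225 and 289 FPKM in the betaine group. The knockout libraries were above all others, and those of wild type and the betaine group overlapped. The rise was 0.98 ± 0.24 (adjusted p = 0.0176), 0.73 (adjusted p = 0.0295) without wild type replicate 3, and not called without knockout replicate 1 (adjusted p = 0.0511) or 2 (adjusted p = 0.0725).

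C8a, at 272, 228 and 104 FPKM in wild type, 204, 167 and 159 FPKM in the knockout and 129.6, 158 and 208 FPKM in the betaine group, differed by -0.08 ± 0.33 (adjusted p = 0.876). C8b, at 184, 162 and 60.9 FPKM, then 206, 161 and 156 FPKM, then 146, 148 and 214 FPKM, differed by 0.50 ± 0.38 (adjusted p = 0.346). In both, wild type replicate 3 was far below the other two and below every knockout library. The genes C8a and C8b lie 11131 bases apart on chromosome 4. The C8a level over that of C8b was 1.48, 1.40 and 1.70 in wild type, 0.992, 1.04 and 1.02 in the knockout, and with betaine 0.888, 1.07 and 0.97. This ratio, chosen after its values were seen and not tested, was higher in each wild type library, replicate 3 included, than in any knockout library.

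C6 showed the largest spread of any member. It measured 111, 126 and 7 FPKM in wild type replicates 1 to 3, 118, 82.7 and 85.1 FPKM in the knockout and 39.6, 71.1 and 89.5 FPKM in the betaine group. The mean of wild type replicates 1 and 2 was 17.0 times the level in replicate 3, and the same ratio was 2.84 for C8b, 2.41 for C8a and 2.31 for C9. C9, the component that polymerises into the pore, was at 297, 275 and 124 FPKM in wild type, 255, 220.1 and 217 FPKM in the knockout and 119, 188 and 234 FPKM in the betaine group. The knockout difference of C6 turned from 1.00 ± 0.99 (adjusted p = 0.477) to -0.33 (adjusted p = 0.473) without wild type replicate 3, and that of C9 from 0.09 (adjusted p = 0.865) to -0.31 (adjusted p = 0.389). For C8a and C8b the values without that library were -0.50 (adjusted p = 0.115) and 0.00 (adjusted p = 0.992). No terminal component other than Hc and C8g was called with or without it.

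**Figure D2:**
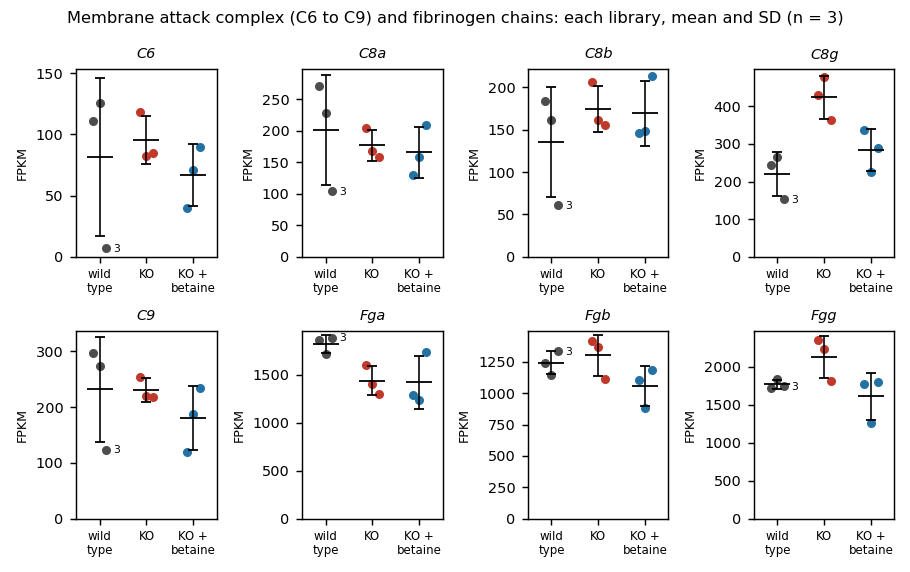
FPKM in each library (points), with mean and SD (bars, n = 3), for the terminal complement genes C6, C8a, C8b, C8g and C9 and for the fibrinogen chains; 3 marks wild type replicate 3. That library is the lowest wild type point for C6, C8a, C8b, C8g and C9, the highest of all 9 for Fga (1885 FPKM), the highest wild type point for Fgb (1335 FPKM) and between the other wild type points for Fgg.

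The contact system, in which factor XII, prekallikrein, factor XI and kininogen start clotting on charged surfaces, had no called member. In the FPKM as deposited the 4 differences in the knockout were positive: F12 0.09 (adjusted p = 0.711), F11 0.34 (adjusted p = 0.0870), Klkb1, the prekallikrein gene, 0.59 (adjusted p = 0.136) and Kng1, the kininogen gene, 0.33 (adjusted p = 0.219). With betaine the 4 differences from the knockout were -0.21 to -0.73, again without a call. These directions depended on the scaling. Rescaled to TPM, the knockout differences were -0.08 for F11, 0.18 for Klkb1 and -0.09 for Kng1, uncalled, and that of F12 turned to -0.33 (adjusted p = 0.0344), as did that of C1ra to -0.39 (adjusted p = 0.0494). Betaine against the knockout then stood at 0.15 for F11, 0.14 for F12, -0.37 for Klkb1 and 0.0045 for Kng1, all uncalled. Kng1 in wild type was the steadiest of these, at 659, 659.5 and 664 FPKM, beside 847, 884 and 760.4 FPKM in the knockout and 861, 520.0 and 599 FPKM in the betaine group. Klkb1 shares 43.2% of its exon bases with the gene Gm45753 on the same strand, listed at 0 or near 0.

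Thrombin generation split between factor V and factor X, which together form the complex that activates prothrombin. F5 (chr1:164151838-164220277), encoding the cofactor, measured 93.2, 80.9 and 85.2 FPKM in wild type, 51.8, 48.9 and 47.4 FPKM in the knockout and 51.1, 56.6 and 48.5 FPKM in the betaine group. Every knockout library, with or without betaine, was below every wild type library, and both knockout groups overlapped. The difference was -0.80 ± 0.12 (limma, adjusted p = 0.0058) in the knockout and -0.73 ± 0.12 (adjusted p = 0.00991) in the betaine group, and it was the only member called in all 19 alternatives of both comparisons. Platelets also carry factor V, and the 6 platelet and megakaryocyte markers summed to at most 3.63 FPKM in any library, with Gp1bb at 0 in all 9.

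F10 (chr8:13037308-13056676), encoding the protease of that complex, measured 161, 179 and 172 FPKM in wild type, 262, 275 and 234 FPKM in the knockout and 245, 173 and 197 FPKM in the betaine group. The knockout lay above wild type without overlap, and the betaine libraries spread over both ranges. The rise of 0.59 ± 0.15 (adjusted p = 0.0237) was not called without wild type replicate 1, knockout replicate 1 or knockout replicate 2 (adjusted p = 0.0672 to 0.0939). Under TPM it was not called either, as given above. F10 over F5, a ratio chosen after seeing its values and not tested, was 1.72 to 2.22 for wild type, 4.93 to 5.62 for the knockout and 3.05 to 4.79 with betaine. F5 has 7430 exon bases and F10 has 2731. The median knockout difference of all tested genes was -0.24 above 5000 exon bases and 0.19 between 2000 and 3000. The part of gene length in this ratio was not tested.

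F7, whose product starts clotting with tissue factor, lies 1499 bases from F10 and was not called, at 55.0, 51.9 and 66.1 FPKM in wild type, 58.3, 54.0 and 52.1 FPKM in the knockout and 66.6, 54.5 and 63.7 FPKM in the betaine group (knockout difference -0.07 ± 0.14, adjusted p = 0.746). F9, the factor IX gene, was at 75.6, 70.9 and 78.1 FPKM, then 65.4, 60.9 and 63.3 FPKM, then 63.9, 56.6 and 68.0 FPKM (-0.24 ± 0.12, adjusted p = 0.156). F2, the prothrombin gene, was at 458, 474 and 423 FPKM, then 421, 382 and 365 FPKM, then 389, 341 and 383 FPKM (-0.22 ± 0.13, adjusted p = 0.235). F9 and F2 lay lower in all 6 knockout libraries than in any wild type library, by differences that did not pass the threshold. Of the 6 vitamin K dependent members (F2, F7, F9, F10, Proc and Pros1), 1 rose, 1 fell and 4 were not called, beside 12.8% higher and 12.7% lower of all tested genes.

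Fibrinogen is a hexamer of alpha, beta and gamma chains from 3 neighbouring genes on chromosome 3, and none of them was called. Fga measured 1866, 1717 and 1885 FPKM in wild type, 1603, 1408 and 1301 FPKM in the knockout and 1287, 1233 and 1738 FPKM in the betaine group (knockout difference -0.35 ± 0.17, adjusted p = 0.158). Fgb stood at 1244, 1149 and 1335 FPKM, then 1418, 1372 and 1115 FPKM, then 1108, 882 and 1184 FPKM (0.06 ± 0.17, adjusted p = 0.807). Fgg stood at 1718, 1839 and 1747 FPKM, then 2347, 2228 and 1816 FPKM, then 1769, 1256 and 1799 FPKM (0.26 ± 0.18, adjusted p = 0.306). The chains leaned in different directions: Fga over Fgg was 1.09, 0.934 and 1.08 in wild type, 0.683, 0.632 and 0.716 in the knockout, and with betaine 0.728, 0.982 and 0.966. The wild type and knockout ratios did not overlap, and 2 of the betaine libraries lay within the wild type range; the ratio was chosen after its values were seen and was not tested. The 3 chains summed to 4834 ± 131 FPKM in wild type and 4869 ± 581 FPKM in the knockout (SD, n = 3). As a share of all FPKM in the library the sum was 1.10%, 1.047% and 1.33% for wild type, 0.946%, 0.857% and 0.793% for the knockout, and 0.872%, 0.888% and 1.04% with betaine, so that wild type and knockout overlapped in the sum as deposited and not in the share.

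F13b encodes the carrier subunit of factor XIII, the enzyme that cross-links fibrin. F13b (chr1:139501702-139523752) measured 83.5, 76.6 and 86.4 FPKM in wild type, 49.7, 35.0 and 37.0 FPKM in the knockout and 55.3, 75.4 and 63.9 FPKM in the betaine group. The groups were ordered without overlap, with the betaine libraries between the other two. Wild type was 2.02-fold higher than the knockout, a difference of -1.02 ± 0.17 (adjusted p = 0.0066), and the betaine group differed from wild type by -0.35 ± 0.17 (adjusted p = 0.197).

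Among the anticoagulants Pros1, which encodes protein S, the cofactor of activated protein C, was lower in both knockout groups. Pros1 (chr16:62854307-62929346) measured 16.1, 18.2 and 18.2 FPKM in wild type, 11.9, 10 and 9.23 FPKM in the knockout and 9.82, 11.8 and 10.9 FPKM in the betaine group. No knockout library reached the lowest wild type value, and the knockout groups overlapped. The differences were -0.73 ± 0.13 (limma, adjusted p = 0.00795) without betaine and -0.67 ± 0.13 (adjusted p = 0.0171) with it, the latter not called without wild type replicate 2, betaine replicate 1 or betaine replicate 3 (adjusted p = 0.0502 to 0.0610). Proc, the gene of protein C itself, pointed the other way without a call, at 259 to 402 FPKM in wild type and 464 to 566 FPKM in the knockout (0.57 ± 0.22, adjusted p = 0.0891). Serpinc1, the antithrombin gene, differed by 0.28 (adjusted p = 0.170). Serpind1, the gene of heparin cofactor II, a thrombin inhibitor, had 252 to 295 FPKM in wild type and 206 to 226 FPKM in the knockout (-0.36 ± 0.12, adjusted p = 0.0544).

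In the plasminogen system, Plg, the gene of the precursor of plasmin, was lower. Plg (chr17:12378608-12419385) measured 601, 520.0 and 623 FPKM in wild type, 457, 402 and 409 FPKM in the knockout and 476, 419 and 450.5 FPKM in the betaine group. All wild type libraries were above all others, with a knockout difference of -0.46 ± 0.13 (adjusted p = 0.0360) and a betaine group difference of -0.37 ± 0.13 that was not called (adjusted p = 0.101). The call ended without wild type replicate 1 or 3, any knockout library or betaine replicate 3 (adjusted p = 0.0576 to 0.128). Serpinf2, the gene of the plasmin inhibitor alpha-2-antiplasmin, differed by -0.31 (adjusted p = 0.109), and Cpb2, whose product protects fibrin from plasmin, by 0.15 (adjusted p = 0.474).

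**Figure D3:**
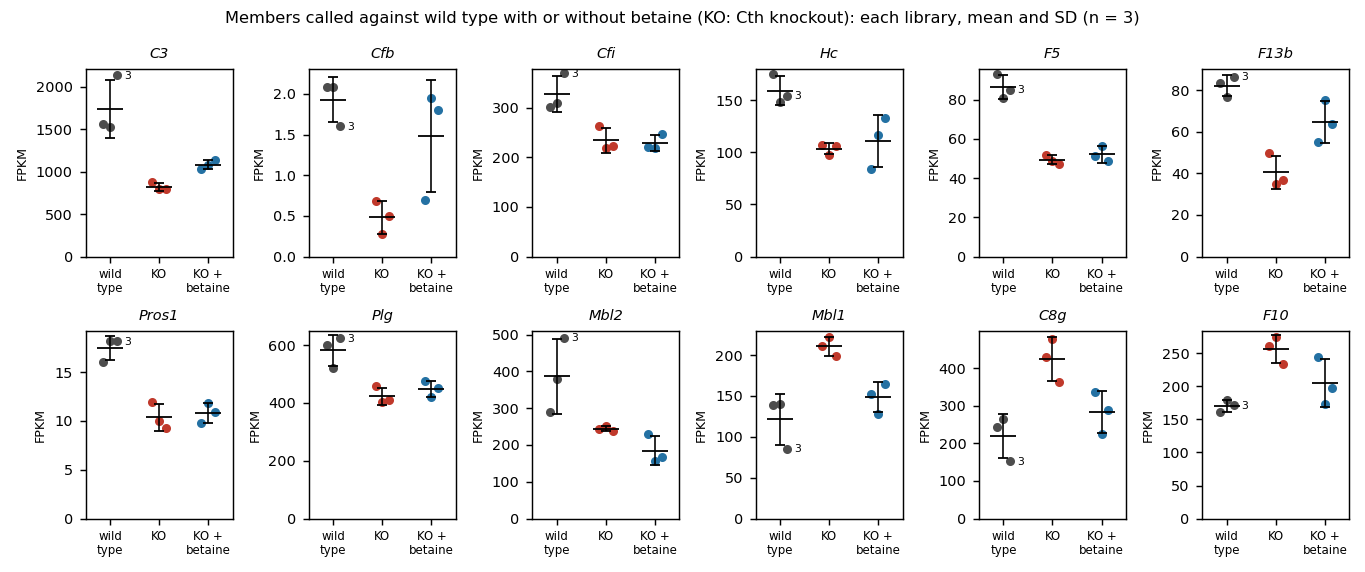
FPKM in each library (points), with mean and SD (bars, n = 3), for the 12 members called against wild type with or without betaine; 3 marks wild type replicate 3. C3, F13b and Mbl2 fall into 3 separate levels, with the betaine group in the middle for C3 and F13b and lowest for Mbl2. F5 and Pros1 stay at the knockout level in the betaine group.

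Against the knockout without betaine, the betaine group showed no called member: limma called 0 of 38 higher and 0 lower, beside 0.0169% and 0.0253% of all tested genes (2 and 3 genes). An unadjusted p under 0.05 was met by 10 of 38 members, beside 22.5% of all tested genes (2672). Limma without its trend and robust options called 0 genes in all. The members with groups that did not overlap were C3, Cfb, F13b and Serpind1, higher with betaine, and Mbl1, Mbl2, Vtn, C8g, Klkb1, Fgg, Serpinc1 and Proc, lower with betaine. These 4 higher and 8 lower of 38 stand beside 15.6% higher and 14.7% lower of all tested genes. F13b came nearest to a call, at 0.68 ± 0.17 (adjusted p = 0.0942), followed by Cfb at 0.96 ± 0.28 (adjusted p = 0.117). C3 was at 0.40 ± 0.16 (adjusted p = 0.189), Mbl1 at -0.51 ± 0.20 (adjusted p = 0.179), C8g at -0.59 ± 0.24 (adjusted p = 0.184) and F5 at 0.07 ± 0.12 (adjusted p = 0.743). The 95% interval for F5 was -0.19 to 0.34 and that for Pros1 -0.23 to 0.36.

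Betaine replicate 1 weighed on this comparison. Without it 878 genes were called in place of 5, with 4.03% of all tested genes higher and 3.37% lower. Beside those shares, 2 of the 38 members rose, F13b (0.78, adjusted p = 0.0419) and Cfb (1.29, adjusted p = 0.0257), and 1 fell, Kng1 (-0.57, adjusted p = 0.0483). The scale did too: as TPM, which moved the median of all tested genes to 0.33, 6 members were higher with betaine (C3, Cfb, F13b, F7, Serpind1 and Serpinf2) and none lower, beside 14.2% and 0.616% of all tested genes. Of all genes called then, 95.8% were higher in place of 40.0%.

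Against wild type, the betaine group had 5 members lower (C3, Cfi, F5, Mbl2 and Pros1) and 0 higher, beside 5.78% and 5.87% of all tested genes. For Mbl2 the difference of -1.05 ± 0.21 (limma, adjusted p = 0.0179) made wild type 2.10-fold higher, and it was not called without betaine replicate 3 (adjusted p = 0.0703). The median over the 38 members was -0.15, beside 0.00 over all tested genes, and 26 of the 38 differences were negative, beside 5862 of 11852. The comparison uses the same wild type libraries as the first and the same betaine libraries as the second, so the 3 sets of values are not independent. Under TPM 3 of the 5 calls passed, without C3 (-0.72, adjusted p = 0.0505) and Cfi (-0.56, adjusted p = 0.0640).

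**Figure D4:**
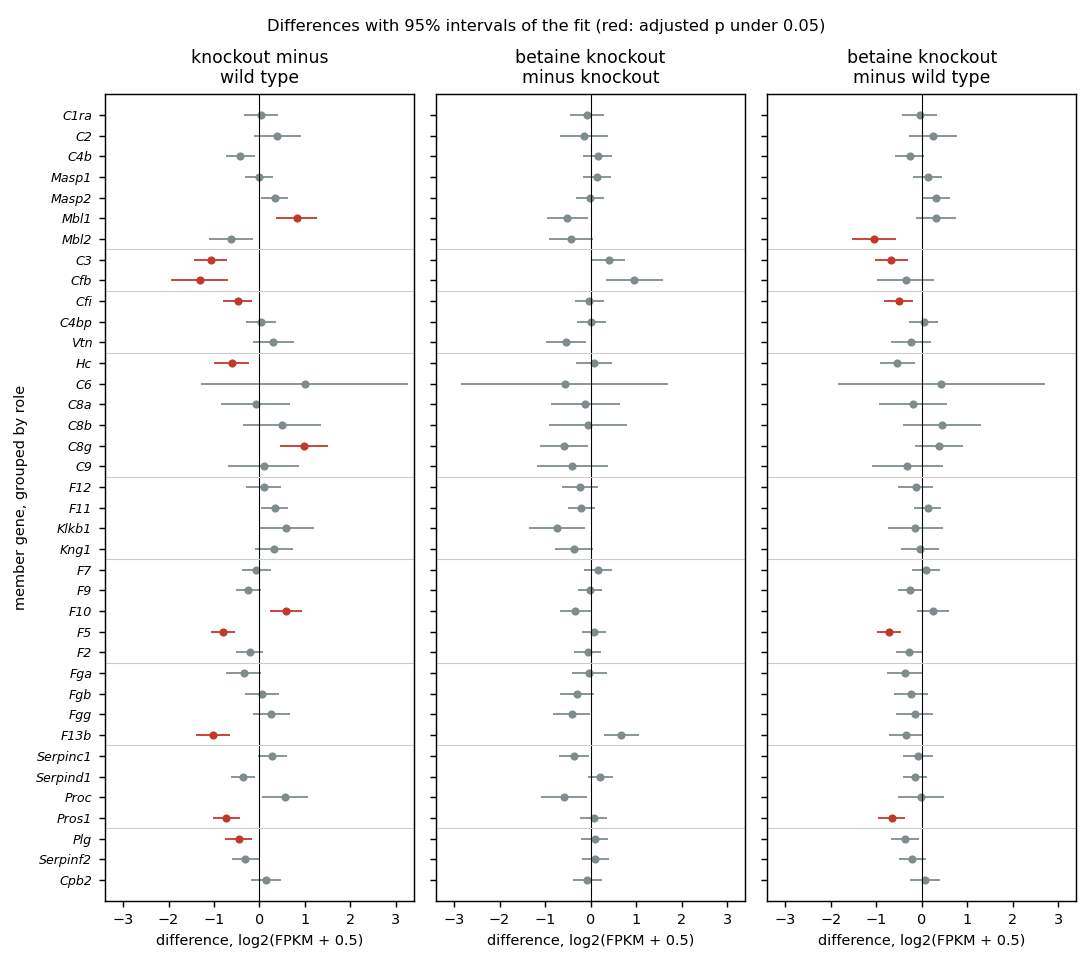
Differences in log2(FPKM + 0.5) with 95% intervals of the limma fit for the 38 members, in the 3 comparisons; red marks an adjusted p under 0.05. Red points number 11, 0 and 5 from left to right, and the interval of C6 is the widest.

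The knockout difference went with gene length over all genes. Across 11849 tested genes Spearman's rho between the difference and the summed exon length was -0.46, and across the 38 members -0.22; genes are not independent replicates, and this is a description. Members spanned 1089 to 9833 exon bases, with a median of 2903 beside 3798 for all tested genes. With the length trend removed from each library, 3 members were higher and 11 lower: Hc (-0.43, adjusted p = 0.0778) and Mbl1 (0.47, adjusted p = 0.0668) lost their calls, and Mbl2 (-1.06, adjusted p = 0.0161), Serpind1, Serpinf2, F9 and, upward, Serpinc1 (0.55, adjusted p = 0.0410) gained them. With wild type replicate 3 also left out, no member was higher and 9 were lower, beside 7.37% higher and 8.28% lower of all tested genes. C8g then stood at 0.42 (adjusted p = 0.0782).

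**Figure D5:**
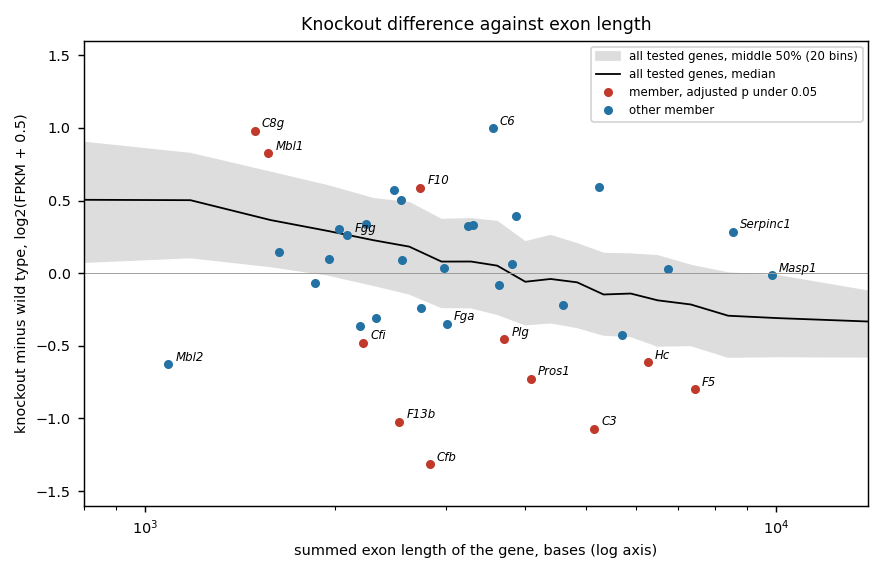
Knockout minus wild type difference in log2(FPKM + 0.5) against summed exon length (log axis) for the 38 members, over the median (line) and middle 50% (grey band) of all tested genes in 20 length bins; red marks called members. C3, F13b, Cfb, Pros1 and F5 lie below the band, Mbl2 lies far below it without a call, and C8g and Mbl1 lie above it.

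Other genes of the same pathways were read from lists by function, and each count stands beside the 12.8% higher and 12.7% lower of all tested genes in the knockout. In the knockout, none of 11 tested complement components outside the 38 was called; the lowest adjusted p were those of Colec10, a collectin (-0.83, adjusted p = 0.0780), and C1rl (0.29, adjusted p = 0.138). Among the complement regulators and receptors, Cpn2, a subunit of the enzyme that trims the C3 and C5 fragments, fell (-0.64 ± 0.13, adjusted p = 0.00964). None of 5 procoagulant genes outside the 38 was called, with F2r, a thrombin receptor, at 0.50 (adjusted p = 0.0638) and F8, the factor VIII gene, at -0.80 (adjusted p = 0.0917).

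Of 8 further anticoagulant genes, Pzp, a broad protease inhibitor of plasma (-1.09 ± 0.16, adjusted p = 0.00606), and Thbd, the thrombomodulin gene (-1.6 ± 0.37, adjusted p = 0.0157, or up to 0.0598 without knockout replicate 2), fell. Thbd and F8 are made by endothelial cells, and 2 of 8 sinusoidal endothelial markers were also lower, with a summed level of 42.0 to 79.0 FPKM in wild type and 32.8 to 42.5 FPKM in the knockout, with wild type replicate 3 highest for all 8. In bulk liver, fewer cells of a type and less RNA per cell cannot be told apart. Of 3 tested fibrinolysis genes, S100a10, part of a plasminogen receptor, rose from 42.8 to 129 FPKM (1.61 ± 0.24, adjusted p = 0.00611), as did Plgrkt, another such receptor (0.62 ± 0.16, adjusted p = 0.0206), whose call ended under TPM and without wild type replicate 2 or any knockout library (adjusted p up to 0.146).

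Of 9 genes of the vitamin K cycle and of secretion, Furin, the protease that removes propeptides of clotting factors, fell from 32.6 to 16.3 FPKM (-0.98 ± 0.15, adjusted p = 0.00612). Of 19 transcription factors known to act on liver genes, 3 fell and 1 rose, beside 12.7% and 12.8% of all tested genes. Hnf4a, a regulator of many of the members, fell from 174 to 109 FPKM (-0.66 ± 0.15, adjusted p = 0.0161) and Foxa2 rose from 11.7 to 27.0 FPKM (1.19 ± 0.28, adjusted p = 0.0173). Foxa3 (-0.66, adjusted p = 0.0394) and Stat3 (-0.44, adjusted p = 0.0276) were the others. These 4 calls each ended without at least 1 of the knockout libraries, with adjusted p over all alternatives of up to 0.0581 for Hnf4a, 0.0808 for Foxa2, 0.115 for Foxa3 and 0.530 for Stat3. The calls of Cpn2, Pzp, S100a10 and Furin passed in all 19 alternatives.

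Betaine against the knockout called no gene of these 7 lists. Against wild type, 3 of 3 fibrinolysis, 1 of 5 procoagulant and 1 of 9 vitamin K and secretion genes were higher in the betaine group. Lower were 4 of 19 transcription factors and 1 of 8 anticoagulant genes, and none of 11 complement components was called. The shares of all tested genes were 5.87% higher and 5.78% lower. Calls of Hnf4a (-0.97 ± 0.15, adjusted p = 0.00861), Foxa3 (-1.38 ± 0.20, adjusted p = 0.00733) and S100a10 (1.70 ± 0.24, adjusted p = 0.00733) passed in all 19 alternatives. F2r rose (0.88 ± 0.18, adjusted p = 0.0180, and up to 0.0669 without betaine replicate 3). None of the tested Kupffer cell, stellate cell, cholangiocyte, lymphocyte, neutrophil, erythroid or platelet markers was called in any of the 3 comparisons. All 8 Kupffer cell and all 8 stellate cell markers were tested, as were 5 of 6 erythroid and 4 of 6 cholangiocyte markers. Only 2 of 7 lymphocyte, 2 of 6 neutrophil and 2 of 6 platelet markers were. The others lay below the mean level needed for a test, so they could not be called. The 8 Kupffer cell markers summed to 131 to 163 FPKM for wild type, 83.9 to 101 FPKM for the knockout and 63.4 to 170.1 FPKM with betaine. Macrophages also make some complement proteins, and their part in the values was not tested.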

How the data were processed

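Poly(A) RNA libraries were made with an NEBNext Ultra kit, per the labels' protocols. The authors deposited 1 FPKM value per gene and library, with 54532 genes and no counts. The submitters' processing notes name HISAT2 2.0.5, featureCounts 1.5.0-p3, DESeq2 1.16.1 and build mm10, without roles. Sums of FPKM ran from 373773 to 584197 per library. The library size implied by the size of 1 read in the FPKM differed from the recovered reads, at 13513407 beside 15184982 in knockout replicate 1 and 18525514 beside 16342459 in betaine replicate 2, and TPM was tried as an alternative. Symbols were matched for 54409 genes and GENCODE M21 exon lengths (GRCm38, the assembly of mm10) for 54495. With these lengths 98.3% to 98.6% of values up to 20 reads lay within 0.05 of a whole read.

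The 11852 genes averaging 0.5 FPKM or more were fitted as log2(FPKM + 0.5) in limma 3.58.1 (R 4.3.3; lmFit, eBayes with trend and robust), all 9 libraries together, two-sided, with Benjamini-Hochberg adjustment within each comparison. The fit was tested on simulated data. Tables were handled in Python 3.11.15 (pandas 2.3.3, numpy 2.4.6) and drawn in matplotlib 3.10.9. The members and gene lists were chosen with earlier results of these data known. Members called in any comparison, and all of the terminal complement, thrombin generation and fibrin roles, are given by library; other genes are the called ones of each list with the smallest p, up to 4, or up to 2 uncalled ones; 1 gene of these lists is not reported here. The 19 alternatives were pseudocounts of 0.1 and 1, no filter, a filter of 5 FPKM, TPM, quantile normalization, a replicate block, removal of a loess trend on exon length with and without wild type replicate 3, limma without trend and robust, and leaving out each library.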

Additional observations from a re-analysis of the deposited data

How the results depend on the processing

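Of 38 members in 3 comparisons, single differences kept their side of the threshold in 2054 of the values recomputed under the 19 alternatives, 1916 with the same direction and 138 uncalled with the opposite one, lost a call in 67, gained one in 40, and turned with a call in 2, both under TPM in the knockout (C1ra -0.39 and F12 -0.33). For genes of the other lists the counts were 725 (9 of them uncalled with the opposite direction), 106 and 9, and none turned with a call.

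Of the counts of members in the knockout, the lower ones moved to 5 with no filter, 18 under TPM, 15 with quantile normalization and 5 with the replicate block, and the higher ones to 0 with the length trend removed and without wild type replicate 3. Beside these, 3.75%, 31.0%, 13.7% and 9.04% of all tested genes were lower, in that order, and 7.37% higher in the last. Genes called over the whole table, 3029, moved to 1865 with no filter, 1903 with a filter of 5 FPKM and 1854 with the length trend and wild type replicate 3 removed. For betaine against the knockout the members higher moved from 0 to 6 under TPM. All genes called, 5, became 8 and 10 with pseudocounts of 0.1 and 1, 1 with no filter, 3 with a filter of 5 FPKM, 1754 under TPM, 213 with the length trend and wild type replicate 3 removed, 0 with the replicate block and 0 for limma without trend and robust. For betaine against wild type the members lower moved from 5 to 3 with no filter, under TPM and with the replicate block, and all genes called, 1381, to 531 with no filter, 826 with a filter of 5 FPKM and 671 with the replicate block.

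Leaving out 1 library at a time gave 0 to 3 members higher and 4 to 10 lower in the knockout, with 896 to 3231 genes called in all. For betaine against the knockout it gave 0 to 2 higher, 0 to 1 lower and 0 to 878 in all, and for betaine against wild type 1 to 4 lower and 351 to 1441 in all. With 2 libraries left in a group, their spread is shared with the other groups.

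The replicate numbers are a weak ground for pairing. Deviations of same-numbered libraries correlated at -0.23 to 0.10 over 9 pairs, beside -0.14 to 0.26 over 18 pairs with different numbers. With 3 libraries per group, these values cannot tell whether same-numbered libraries shared more than a number. The replicate block values above are given for completeness. The cause of each change was not tested. Depth limits Cfb most, with 11 reads at its lowest.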
